A study of Zea mays with 144 samples.

Results

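The passage from tetrads to early microspores was examined in maize anthers of the inbred Ky21, averaged over upper and lower florets. Members were chosen by the stage given in the labels: the 4 early microspore RNA pools were compared with the 4 tetrad pools, so that 8 of the 24 pools of the series were in the comparison. Each side held 2 upper floret and 2 lower floret pools, 1 of each from set 1 and 1 from set 2, the sets being the pool numbers in the labels. All pools came from this one inbred line, and the labels give no treatment and no age other than the stage. Per the labels, anthers were staged by light microscopy, RNA of 8 to 20 anthers per tassel was extracted, and RNA of 1 to 4 individuals was mixed at random into a pool. After amplification, each pool was labelled with the dyes Cy3 and Cy5 and pairs of pools were hybridised to spotted cDNA arrays of 12160 features. Each of the 48 slides was scanned at 3 intensities, each pool was on 4 slides, and 4 slides held a tetrad and an early microspore pool of one floret and set side by side.

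Meiosis leaves each male meiocyte as a tetrad of haploid cells held inside a callose wall. Enzymes from the tapetum, the innermost layer of the anther wall, dissolve the callose and release the cells as free microspores, which enlarge, lay down the outer pollen wall and later divide. Tapetum cells feed the microspores and deliver sporopollenin precursors, so anthers of this period need sugar, phenolic and lipid metabolism in several tissues at the same time. An anther pool mixes all of these cells, and fewer cells of a type cannot be told apart from less RNA per cell.

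The values are log2 ratios, and each pool stands against the average of its set, 12 pools. In consequence no absolute level was measured and no gene can be ranked against another by level. Which dye is the numerator is not in the labels, although they give each pool's dye. Stage slides were taken to be Cy5 divided by Cy3, a reading under which the meiosis genes rad51a, ZYP1 and afd1 had log2 ratios of -1.36, -2.02 and -0.72 in upper florets and -2.24, -1.09 and -0.74 in lower florets at the last stage against the first. The fourth, Rad51A2, stood at -0.12 and 0.10. The direction of every change is therefore likely rather than stated, and the other sign would exchange each rise and each fall. In what follows pool values are listed in the order upper floret set 1, upper floret set 2, lower floret set 1 and lower floret set 2.

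Of 12160 features, 2121 (17.4%) changed between tetrads and early microspores at a Benjamini-Hochberg adjusted p under 0.05 in limma, a linear model that shares the variance across features. Of these, 917 features (7.54% of all) rose and 1204 (9.9%) fell. Over all features, 3717 were at an unadjusted p under 0.05. The median fold was 1.58 among the features that rose and 1.59 among those that fell. Larger changes were mostly rises: 44 called features were over 4-fold higher and 4 over 4-fold lower, and 15 against 1 passed 8-fold. The median log2 ratio of all features was 0.0041. The 4 early microspore pools all lay above the 4 tetrad pools in 1082 features (8.9%) and all below in 1303 (10.7%). Among the called features 1586 had pools that did not overlap in this way, and 2056 had the same sign in each of the 4 differences between an early microspore and a tetrad pool of one floret and set. The calls rest on the mean of these same 4 differences, so both numbers are favoured by the choice of called features. The share of all features with 1 sign in the 4 differences is not given here. A gene name was linked to 244 of the called features, which stand for 187 genes.

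**Figure D1:**
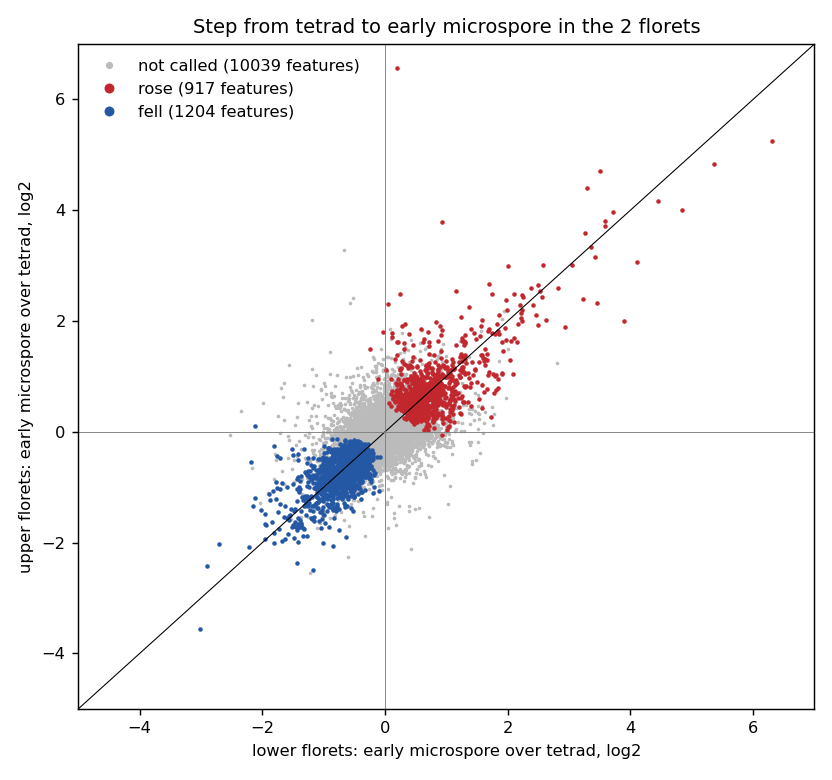
Log2 ratio of early microspores over tetrads in upper florets (vertical axis) against lower florets (horizontal axis), 1 point per feature, with the line of equal ratios. Of the 917 features that rose and the 1204 that fell, 5 had ratios of opposite sign in the florets. Their call on the mean of both florets favours the same sign. Some called features lie far from the line, such as feature 8665 with 6.56 in upper and 0.19 in lower florets. In 2 scans of the slides with both stages, feature 8665 had the value that the most features of the scan share.

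The mitochondrial porin gene vdac2 (feature 4564), which encodes a channel of the outer mitochondrial membrane, rose most among genes with a name. Its log2 values were -0.21, 0.28, -0.41 and -0.50 in the tetrad pools and 2.60, 2.26, 2.92 and 2.62 in the early microspore pools. The groups lay far apart, with the 4 tetrad pools near 0 and the 4 early microspore pools above 2. Early microspores stood 7.02-fold higher, a log2 ratio of 2.81 ± 0.24 (SE, n = 4 pools a side, limma adjusted p = 8.68e-06), and in the high scan alone the log2 ratio was 2.13. The other porin gene measured, por1 (feature 3973), had a log2 ratio of 0.33 (adjusted p = 0.0634) and did not pass.

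Sucrose synthase, which splits sucrose into fructose and UDP-glucose, was represented by the gene ss2, also listed as sus1. Its 6 features come from 1 gene and are not independent of each other. For feature 11138 the log2 values were -0.46, -0.19, -0.65 and -0.43 in the tetrad pools and 1.68, 1.51, 1.91 and 2.01 in the early microspore pools. No tetrad pool came near an early microspore pool, and the ratio was 2.21 ± 0.14 (4.64-fold, limma adjusted p = 1.72e-06). Features 4318, 7358, 6902 and 11207 rose as well, with log2 ratios of 1.90, 1.89, 1.81 and 1.18. Feature 9109 had 0.70 (adjusted p = 0.253) and differences of 1.29, 0.51, 0.71 and 0.28, so that its 2 values from set 1 were above its 2 values from set 2. The size depended on the scan: feature 11138 had a log2 ratio of 2.84 in the low scan and 1.03 in the high scan, and feature 4318 had 3.09 and 0.36, all of which passed.

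Growth-regulating factors are plant transcription factors known for promoting cell proliferation in leaves and other growing organs. Genes were taken into this family by a GRF symbol alone, as no product descriptions were available, so that their identity is assumed from the name. They were looked up as a family after 3 of them had appeared among the largest rises, so their number is a description. Of 12 features from 9 genes of this name, 4 rose, none fell, and the median log2 ratio was 0.22, where 7.54% of all features rose and 9.9% fell. For GRF2 (feature 9982) the log2 values were -0.18, -0.24, -0.84 and -0.66 in the tetrad pools and 1.77, 1.53, 0.88 and 0.42 in the early microspore pools. All early microspore pools lay above all tetrad pools, with the upper floret pools above the lower floret pools at both stages, and the ratio was 1.63 ± 0.14 (3.09-fold, limma adjusted p = 8.87e-06). GRF14 (feature 7357) moved from 0.12, 0.25, -0.23 and -0.12 in the tetrad pools to 0.98, 1.04, 1.03 and 1.27 in the early microspore pools, a log2 ratio of 1.08 ± 0.12 (adjusted p = 8.83e-05). The early microspore values of GRF14 span less than those of GRF2.

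GRF1 (feature 152) had the larger average but an uneven one. Its log2 values were -0.47, -0.12, -0.96 and 0.12 in the tetrad pools and 2.73, 0.91, 3.04 and 1.04 in the early microspore pools. Both set 1 pools of early microspores stood near 3 and both set 2 pools near 1, in either floret, and the ratio over all was 2.29 ± 0.42 (4.89-fold, limma adjusted p = 0.00253). On the 4 slides that held both stages it was 2.27 (adjusted p = 0.0715), past 4-fold but not past the threshold, and in the high scan alone it was 1.50. GRF9 (feature 10388) rose with a log2 ratio of 1.25 ± 0.31 (adjusted p = 0.0128) and differences of 2.21, 1.40, 1.48 and -0.07, the last of them close to 0. In 7 of the 12 scans of the direct slides, GRF9 held the value that the most features of the scan share exactly. Against the median of the scan, that value was 0 in the low scans. In the medium scans of upper florets it was 5.22 in set 1, as early microspore over tetrad, and 3.37 in set 2, as tetrad over early microspore. Which scans held it for GRF9 is not given here, so its part in the ratio was not tested. The remaining 8 features of GRF10, GRF11, GRF12, GRF8 and GRF13 lay between -0.46 and 0.31, and none passed.

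**Figure D2:**
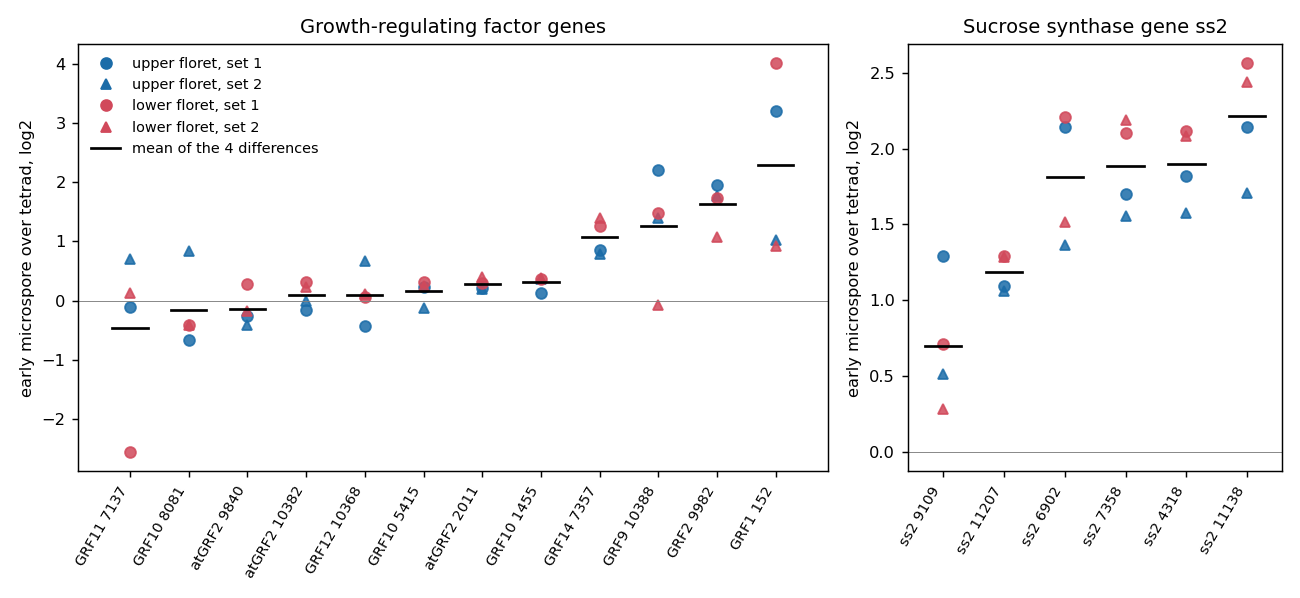
Log2 ratio of early microspores over tetrads for each feature of the genes taken as growth-regulating factors by their symbol (left) and of the sucrose synthase gene ss2 (right). There is 1 point for each of the 4 differences within a floret and set and a bar for their mean. GRF14, GRF9, GRF2 and GRF1 passed, as did all features of ss2 other than 9109. The atGRF2 features are those listed as GRF8 (2011) and GRF13.

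Several other large rises came from genes of less related functions. ACR4 (feature 4962), to which no role is given here, had log2 values of -0.78, -0.68, -0.76 and 0.27 in the tetrad pools and 1.85, 1.67, 1.18 and 1.82 in the early microspore pools, with the lower floret tetrad pool of set 2 above the other 3 tetrad pools but still under every early microspore pool. Its ratio was 2.12 ± 0.29 (limma adjusted p = 3.84e-04). The MYB transcription factor gene MYB51 (feature 7147) had values of 0.00, 0.04, -0.26 and -0.11 in the tetrad pools and 2.71, 1.36, 1.79 and 1.00 in the early microspore pools. Its tetrad pools were close together and its early microspore pools spread over more than 1 log2 unit, and the ratio of 1.80 ± 0.56 passed narrowly (adjusted p = 0.0413). It did not pass in 13 of the 21 alternative ways of processing or of leaving out a pool: without the upper floret early microspore pool of set 1 it was 1.43 (adjusted p = 0.177), and in the high scan 0.97.

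The endoplasmic reticulum membrane gene VAP27-2 (feature 9363) showed a tight response, from 0.73, 0.84, 0.37 and 0.35 in tetrads to 1.74, 1.51, 1.54 and 1.47 in early microspores (log2 ratio 0.99 ± 0.16, limma adjusted p = 9.35e-04). The glutaredoxin gene grx1, a small redox enzyme, rose in 2 of 3 features, 8708 (0.99 ± 0.17, adjusted p = 0.00178) and 2953 (0.72 ± 0.16, adjusted p = 0.00672). In the high scan alone feature 2953 was at 0.06 (adjusted p = 0.763). The thiolase gene thiolase1 (feature 5636) had differences of 1.28, 1.14, 0.67 and 1.07 and a ratio of 1.04 ± 0.15 (adjusted p = 4.38e-04). Both florets and both sets pointed the same way for these 3 genes. The O-methyltransferase gene zrp4 (feature 588) had a log2 ratio of 1.16 ± 0.35 (adjusted p = 0.0355) and differences of 1.16, 0.26, 1.53 and 1.68. Its second upper floret difference was small, and its call was lost in 7 alternatives, among them those without the early microspore pools of upper floret set 1, upper floret set 2 and lower floret set 2 or without either tetrad pool of set 1.

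**Figure D3:**
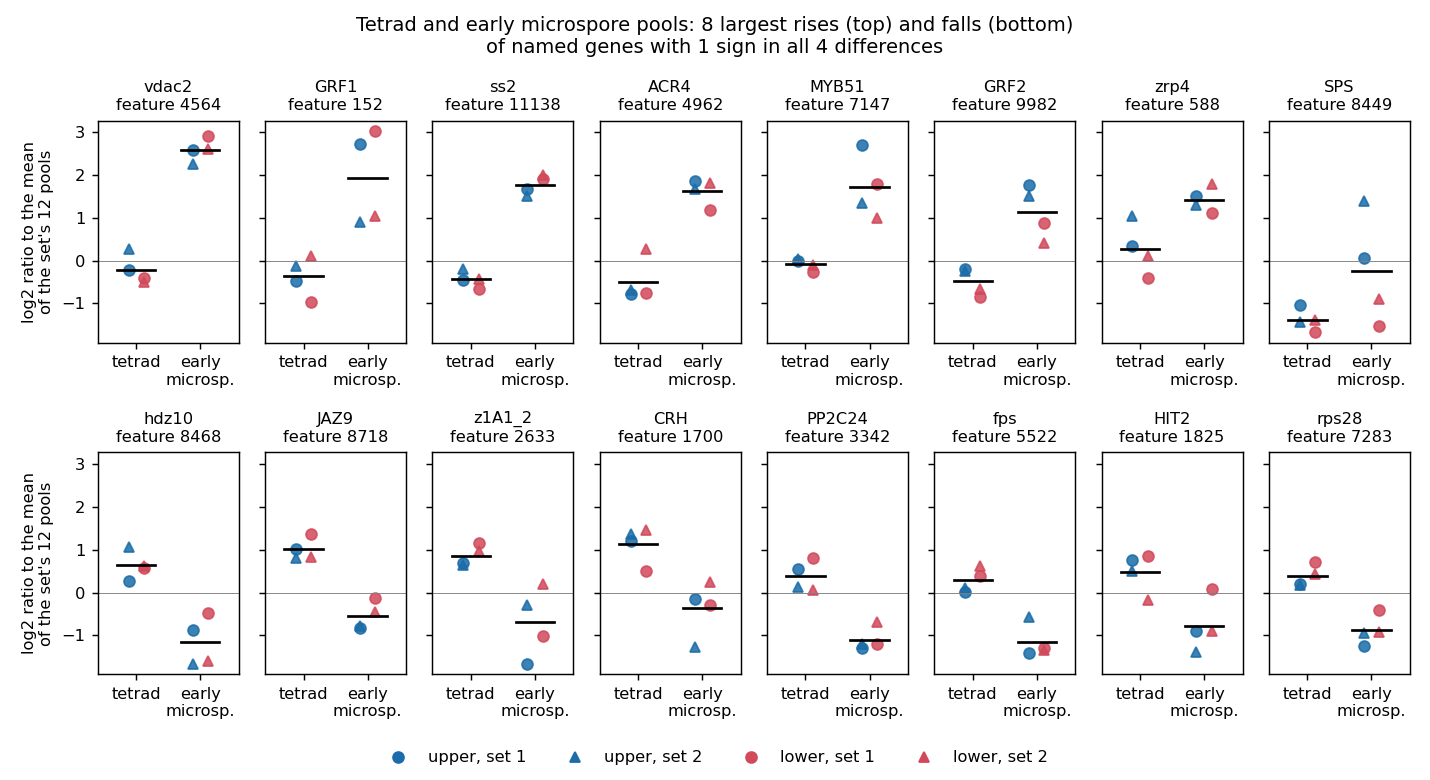
Log2 value of each tetrad and early microspore pool, against the average of the 12 pools of one set, for the 8 largest rises (top) and the 8 largest falls (bottom) among named genes with the same sign in all 4 differences. Points are pools coloured by floret and shaped by set, bars are means of 4 pools. In SPS and HIT2 the groups overlap, and in the other 14 genes they do not.

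Falls were smaller than the largest rises. JAZ9 (feature 8718) encodes a jasmonate ZIM-domain protein, a repressor of the jasmonate response. Its log2 values were 1.02, 0.81, 1.38 and 0.83 in the tetrad pools and -0.82, -0.79, -0.12 and -0.45 in the early microspore pools. Every early microspore pool lay below every tetrad pool, the lower floret pools being the higher ones at the later stage, and the ratio was -1.55 ± 0.22 (limma adjusted p = 4.73e-04), a 2.94-fold difference. The protein phosphatase 2C gene PP2C24 (feature 3342) moved from 0.54, 0.13, 0.82 and 0.06 in tetrads to -1.30, -1.21, -1.19 and -0.69 in early microspores (log2 ratio -1.48 ± 0.18, adjusted p = 1.84e-04). The sterol and brassinosteroid gene DWF1 (feature 4024), known from Arabidopsis, had values of 0.51, 0.25, 0.28 and 0.47 in the tetrad pools and -0.81, -0.80, -0.85 and -0.63 in the early microspore pools. The pools of DWF1 were close together at either stage and did not overlap, and its ratio was -1.15 ± 0.20 (adjusted p = 0.00157).

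The vacuolar proton pump gene H+-PPase, also listed as vpp1, uses pyrophosphate to acidify the vacuole and fell in each of the 3 features named for it. Feature 6196 had log2 values of 0.50, 0.31, 0.45 and 0.40 in the tetrad pools and -0.83, -0.64, -0.62 and -0.55 in the early microspore pools. Both groups were narrow, and the ratio was -1.07 ± 0.11 (limma adjusted p = 3.52e-05). Features 7018 and 3332 had ratios of -1.02 ± 0.17 and -1.02 ± 0.12, with the smallest difference in upper florets of set 2 for both. The mitochondrial adenine nucleotide translocator gene ANT-G2, which exchanges ATP and ADP across the inner membrane, fell in 2 features with log2 ratios of -0.76 and -0.59. SE1A (feature 6622), to which no role is given here, had differences of -1.15, -0.41, -1.28 and -1.26 and a ratio of -1.03 ± 0.14 (adjusted p = 3.88e-04).

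The homeodomain-leucine zipper gene hdz10 (feature 8468) had the largest average fall of a named gene, -1.79 ± 0.40 (limma adjusted p = 0.00787). Its log2 values were 0.28, 1.08, 0.58 and 0.61 in the tetrad pools and -0.86, -1.66, -0.47 and -1.60 in the early microspore pools. The set 2 pools of early microspores were well below the set 1 pools. The low scan alone gave -3.40 (adjusted p = 0.0694) and the median of the 3 scans -1.01. The farnesyl pyrophosphate synthase gene fps (feature 5522), of isoprenoid and sterol synthesis, had a ratio of -1.44 ± 0.32 (adjusted p = 0.00789) and likewise ranged from -2.82 in the low scan (adjusted p = 0.0523) to -0.73 in the high scan.

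Further falls depended on the settings. The calreticulin gene CRH, also listed as crt2 (feature 1700), a chaperone of the endoplasmic reticulum that binds calcium, moved from 1.20, 1.38, 0.51 and 1.46 in tetrads to -0.16, -1.26, -0.28 and 0.24 in early microspores (log2 ratio -1.50 ± 0.35, limma adjusted p = 0.00962). None of its 3 scans passed alone, with ratios of -1.05, -2.77 and -0.70, and 3 scans of the direct slides held the shared value. That value was large in some of the direct scans, as given for GRF9, and which scans held it for CRH is not given here. The storage protein gene z1A1_2 (feature 2633), a zein of the kernel that was not sampled here, had -1.55 ± 0.45 (adjusted p = 0.0276) and differences of -2.35, -0.93, -2.18 and -0.76. The lipoxygenase gene lox1 (feature 7865) had -1.25 ± 0.37 (adjusted p = 0.0308) and differences of -2.16, -0.53, -1.79 and -0.52. In both genes the set 1 differences were over 2 times those of set 2 on the log2 scale. The call of z1A1_2 was lost in 8 alternatives, among them those without any 1 of the 4 tetrad pools or without either early microspore pool of set 1. The call of lox1 was lost in 10, among them each scan alone, those without any 1 of the 4 set 1 pools, and that without the upper floret tetrad pool of set 2. HIT2 (feature 1825), to which no role is given here, had -1.27 ± 0.31 (adjusted p = 0.0124), and its lower floret pools of the stages overlap. Its ratio was -2.34 in the low scan, and its call was lost on the direct slides and without either set 2 early microspore pool or either set 1 tetrad pool. The SBP-box transcription factor gene sbp27 (feature 9659, -1.09 ± 0.31, adjusted p = 0.028) and the glutathione transferase gene gst28 (feature 4841, -1.06 ± 0.32, adjusted p = 0.0344) lost their call in 11 and 12 alternatives. The shared value was also held in 3 scans of the direct slides by lox1, in 2 by sbp27 and in 1 each by z1A1_2, gst28 and fps. Which scans these were is not given here.

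Ribosomal protein genes had the lowest median of the gene lists. Of 30 features from 18 genes, 16 features from 9 genes fell and none rose, against 9.9% of all features falling, and 24 of the 30 had a ratio below 0. Their median log2 ratio was -0.57, where that of all features was 0.0041, and the median of the list lay between -0.40 and -0.73 in each of the 4 differences. For rps28 (feature 7283), of the small subunit, the log2 values were 0.21, 0.17, 0.72 and 0.44 in the tetrad pools and -1.24, -0.94, -0.40 and -0.91 in the early microspore pools. The 4 early microspore pools were all lower, and the ratio was -1.26 ± 0.19 (limma adjusted p = 7.18e-04). The other 2 features of rps28 fell by 1.11 and 1.06 on the log2 scale, and those of rps6-2, also of the small subunit, by 1.11 and 1.02. RPL19 (feature 8272) had -0.88, rps4 (feature 4241) -0.87, and 4 of 5 features of the stalk protein gene RP-P0 fell, with ratios between -0.87 and -0.70. The 6 features above 0 were led by ec2e, also listed as rpl39 (feature 2086), at 0.38 (adjusted p = 0.499). Across the 21 alternatives this list had between 11 and 17 falls and a median log2 ratio between -0.64 and -0.44.

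Genes of starch and sucrose metabolism tended the other way, although most calls came from 1 gene. Of 19 features, 8 rose (7.54% of all features did) and 1 fell (9.9% did), with a median of 0.38, and 5 of the 8 belonged to ss2. Without the lower floret tetrad pool of set 1 the median was 0.18. The starch branching enzyme gene ae1 (feature 10763) rose from -0.14, -0.16, -0.38 and -0.25 to 0.46, 0.49, 0.29 and 0.38, a log2 ratio of 0.64 ± 0.13 (limma adjusted p = 0.00376). The sucrose phosphate synthase gene SPS (feature 8449), which makes sucrose, had log2 values of -1.03, -1.43, -1.68 and -1.40 in the tetrad pools and 0.05, 1.40, -1.54 and -0.90 in the early microspore pools. Its rise was large in upper florets and small in lower florets, with differences of 1.08, 2.83, 0.14 and 0.50, and the groups overlap. The mean ratio was 1.14 ± 0.28 (adjusted p = 0.0138), and without the upper floret early microspore pool of set 2 it was 0.77 (adjusted p = 0.0594). The fructokinase gene frk2 fell in feature 6523 (-0.42 ± 0.12, adjusted p = 0.0236), a call lost in 8 alternatives, those on the direct slides and without any 1 pool other than the upper floret early microspore pool of set 2, while its feature 9790 had 0.29 (adjusted p = 0.292), so the features of this gene disagree in sign. The fructokinase gene frk1 rose in 1 of its 2 features (8675, 0.58).

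Phenylpropanoid and flavonoid genes make lignin, pigment and phenolic precursors of the pollen wall. Of 18 features, 6 rose (7.54% of all features) and none fell (9.9% of all), with a median of 0.47 and 16 features above 0. The 4-coumarate:CoA ligase gene 4CL (feature 2062) had log2 values of -0.08, 0.11, -0.47 and -0.46 in the tetrad pools and 1.03, 0.89, 0.76 and 0.61 in the early microspore pools. These groups did not overlap, and the ratio was 1.05 ± 0.23 (limma adjusted p = 0.00628). Chalcone synthase, the entry enzyme of flavonoid synthesis, is encoded by c2, of which feature 10186 rose by 0.94 and feature 7960 by 0.89, while feature 5588 had 0.43 (adjusted p = 0.273). In the high scan alone feature 10186 was at 0.28. The dihydroflavonol reductase gene A1 (feature 12122, 0.75) and the phenylalanine ammonia-lyase gene PAL1 (feature 7355, 0.55) also rose. The number that passed was 2 in the high scan alone, 2 without the upper floret early microspore pool of set 1, 2 without the lower floret tetrad pool of set 1 and 3 without the lower floret early microspore pool of set 2. Outside the list, sm2 (feature 4083), of maysin synthesis in silks, rose from -0.20, 0.10, -0.39 and -0.49 to 1.24, 0.92, 0.61 and 0.70 (log2 ratio 1.11 ± 0.13, adjusted p = 9.42e-05).

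Among 24 features of ubiquitin and proteolysis genes, 9 rose and none fell, with a median of 0.31, against 7.54% and 9.9% of all features. Of these 9, 5 were features of the ubiquitin gene MUB14, with ratios between 0.42 and 0.54. The ubiquitin-conjugating enzyme gene ubc7 (feature 2360) had log2 values of -0.35, -0.06, 0.14 and -0.02 in the tetrad pools and 0.68, 0.43, 0.82 and 0.90 in the early microspore pools and a ratio of 0.78 ± 0.17 (limma adjusted p = 0.00795). The protease gene lon1 (feature 6752) had 0.67 ± 0.18 (adjusted p = 0.0208), with differences of 1.05, 1.17, 0.11 and 0.36, larger in both upper floret pairs, and its call was lost in 8 alternatives. The number that passed in this list fell to 2 on the 4 direct slides, to 4 without the upper floret early microspore pool of set 1 and to 5 in the high scan alone, without the lower floret tetrad pool of set 1 or without the upper floret tetrad pool of set 2.

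Of 40 features of cell cycle and replication genes, 9 rose and 2 fell, with a median of 0.18, against 7.54% and 9.9% of all features. Of the 9, 8 were features of 2 linker histone H1 genes, his1a, also listed as hon102, and hon101. Histone H1 binds the DNA between nucleosomes. For his1a (feature 1264) the log2 values were -0.69, -0.47, -0.19 and 0.02 in the tetrad pools and 0.76, 0.47, 0.93 and 0.82 in the early microspore pools. Its ratio was 1.07 ± 0.16 (limma adjusted p = 7.85e-04), and 5 more of its 8 features rose, the other 2 having -0.24 and 0.21. Both features of hon101 rose (0.55 and 0.57). The 4 features of the third gene, named H1, had ratios between -0.32 and 0.38 and none passed. The core histone genes his2a1, his2b2, his2b5 and histone2b1 did not pass either, with ratios between -0.06 and 0.20. The ribonucleotide reductase gene RNRL2, which makes deoxynucleotides for DNA synthesis, fell in both features (-0.50 and -0.42), and 1 of 3 features of the replication clamp gene pcna2 rose (8499, 0.48).

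**Figure D4:**
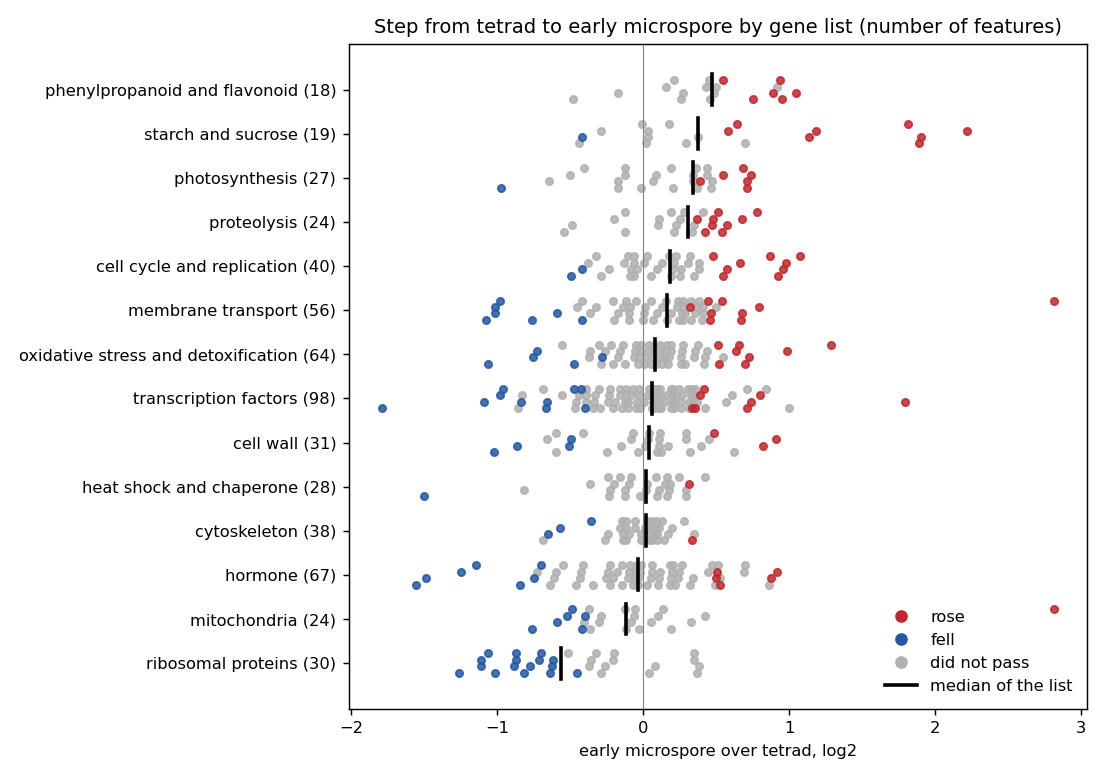
Log2 ratio of early microspores over tetrads for each feature of the gene lists with more than 4 features, with the features that rose, those that fell and those that did not pass, and the median of each list as a bar. Medians run from -0.57 for ribosomal proteins to 0.47 for phenylpropanoid and flavonoid genes.

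Photosynthesis genes had a median of 0.34 over 27 features, of which 6 rose and 1 fell (7.54% and 9.9% of all features). Its median differences were 0.05 and -0.04 in upper florets of set 1 and set 2 and 0.80 and 0.13 in lower florets. The chlorophyll-binding protein gene cp29 (feature 1518) had log2 values of -0.37, -0.32, -0.23 and -0.48 in the tetrad pools and 0.07, -0.04, 0.89 and 0.53 in the early microspore pools, with the lower floret pools of early microspores highest, and a ratio of 0.71 ± 0.12 (limma adjusted p = 0.00148). Another chlorophyll-binding protein gene, cab-m1 (feature 7132), fell by 0.97 on the log2 scale (adjusted p = 0.00758), with the 4 early microspore pools below the 4 tetrad pools. The Rubisco small subunit gene rbcS rose in 1 of 3 features (2941, 0.74, lost in 7 alternatives), as did 1 of 3 of the ferredoxin reductase gene L-FNRII (11760, 0.71). The number that rose was 2 on the direct slides and 3 without either upper floret pool of set 1, the lower floret early microspore pool of set 2 or the upper floret tetrad pool of set 2. Without the lower floret early microspore pool of set 1 the median of the list was 0.14.

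Among 67 features of hormone genes, 5 rose and 7 fell, with a median of -0.03, shares close to the 7.54% and 9.9% of all features. The lipoxygenase gene lox1 and the repressor genes JAZ9 and TIFY23 (feature 10027, -0.74) fell, while opr5 (feature 4518), of the 12-oxophytodienoate reductase family, rose from -0.42, -0.30, -0.25 and -0.37 to 0.49, 0.71, 0.45 and 0.51 (log2 ratio 0.87 ± 0.10, limma adjusted p = 1.26e-04). The repressor family gene TIFY30 rose in 2 features (0.52 and 0.50). The gibberellin gene an1 (feature 7042), whose enzyme makes ent-copalyl diphosphate, had differences of 1.52, 0.50, 1.20 and 0.44 and a ratio of 0.92 ± 0.19 (adjusted p = 0.00552), larger in set 1 than in set 2. The protein phosphatase 2C genes PP2C24 and PP2C18 (feature 8583, -0.85) fell.

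Transport genes numbered 56 features, of which 9 rose and 7 fell (7.54% and 9.9% of all features), with a median of 0.16. Among water and small solute channels, of which many features did not pass, NIP3-1 (feature 6202) had log2 values of 0.14, -0.09, 0.01 and 0.35 in the tetrad pools and 0.67, 0.59, 0.86 and 1.01 in the early microspore pools and a ratio of 0.68 ± 0.11 (limma adjusted p = 9.26e-04), PIP2-6 (feature 7389) rose by 0.67, Lsi6 (feature 6068) by 0.54 and 3 features of PIP1-3 by between 0.45 and 0.47. The vacuolar membrane channel gene tip1 fell in 1 of 3 features (11195), by 0.98 on the log2 scale (adjusted p = 0.0316), with overlapping groups. The plasma membrane proton pump gene mha4 (feature 6873) rose (0.79 ± 0.20, adjusted p = 0.0136), with upper floret differences of 1.11 and 1.68 and lower floret differences of 0.53 and -0.14. The call of mha4 was lost in 6 alternatives. H+-PPase at the vacuole and mha4 at the plasma membrane thus had ratios of opposite sign.

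Transcription factor genes, 98 features, had 8 rises and 10 falls and a median of 0.06, shares close to the 7.54% and 9.9% of all features. Besides MYB51, the rises included GLK17, also listed as PHR1 (feature 8763, 0.80 ± 0.14, limma adjusted p = 0.00204), with upper floret differences of 1.13 and 1.21 and lower floret differences of 0.53 and 0.34, and Myb14 (feature 9281, 0.74, lost in 7 alternatives). Falls besides hdz10 and sbp27 included the MADS-box gene zmm6 (feature 4827), with differences of -2.30, -0.57, -0.20 and -0.86 and a ratio of -0.98 ± 0.25 (adjusted p = 0.0157). Its upper floret pools of set 1 were the ones furthest apart, and its call was lost in 9 alternatives. The ethylene response factor gene EREB192 fell in 2 of 3 features (-0.84 and -0.67).

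In 64 features of redox and detoxification genes 8 rose and 5 fell (7.54% and 9.9% of all features), with a median of 0.08. Glutathione transferase genes went both ways: gst1 rose in 2 features (0.64 and 0.52), gst17 (feature 4126, 0.66) and gst18 (feature 11050, 0.51) rose, and gst7 (feature 3331, -0.75), gst41 (feature 532, -0.73, lost in 8 alternatives) and GST39 (feature 2343, -0.28) fell with gst28. The catalase gene catalase1 (feature 8682) rose (0.70 ± 0.12, limma adjusted p = 0.00139). The aldehyde dehydrogenase gene aldh2, also listed as rf2b, rose in feature 9865 (1.28 ± 0.35, adjusted p = 0.022), with differences of 1.80, -0.28, 2.48 and 1.14. The upper floret pools of set 2 went the other way, the call was lost in 8 alternatives, and its features 3945 and 11913 had 0.07 and -0.29, neither of which passed.

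Mitochondrial genes had 24 features, a median of -0.12, 6 falls and 1 rise, the rise being vdac2, where 9.9% of all features fell and 7.54% rose. Besides ANT-G2, the falls were those of the pyruvate dehydrogenase gene pdh2 (feature 3379, -0.52 ± 0.15, limma adjusted p = 0.0322, lost in 11 alternatives), the prohibitin gene phb2 (feature 6978, -0.49) and the ATP synthase genes ATP2 (feature 11115, -0.42) and atp3 (feature 8039, -0.40). The second feature of atp3 (5437) had 0.42 (adjusted p = 0.239), of the other sign. In cell wall genes, 31 features with a median of 0.04, 3 rose and 4 fell (7.54% and 9.9% of all features), among them the cellulose synthase genes CesA-8 (feature 4178, 0.48), which rose, and CesA-2 (feature 11586, -0.51), which fell. The glycine-rich protein gene grp1 fell in 2 of 3 features (-1.02 and -0.87).

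Cytoskeleton genes stayed near 0 as a list, with a median of 0.02 over 38 features, 3 falls and 1 rise (9.9% and 7.54% of all features). Both features of the gamma-tubulin gene TUBC, whose protein nucleates microtubules, fell: feature 6647 had log2 values of 0.21, 0.20, 0.28 and 0.10 in the tetrad pools and -0.48, -0.46, -0.31 and -0.56 in the early microspore pools, groups that did not overlap, and a ratio of -0.65 ± 0.10 (limma adjusted p = 7.44e-04), and feature 5897 had -0.57. The alpha-tubulin gene tua4 rose in 1 of 6 features (6901, 0.34), a call lost in 13 alternatives. Heat shock and chaperone genes had a median of 0.02 over 28 features, with 1 rise (hsp70-4, feature 4457, 0.31, lost in 10 alternatives) and the fall of CRH, where 7.54% of all features rose and 9.9% fell. None of 4 meiosis, 4 lipid transfer and 1 tapetum features passed, where 17.4% of all features did. These lists are too small to be told apart from that share. The tapetum transcription factor gene ms23 (feature 4534) had a ratio of 0.32 (adjusted p = 0.23), and rad51a (feature 11361) had -0.56 (adjusted p = 0.149). The lists for exine and callose genes matched no named feature.

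Marker lists of cell types that an anther pool can hold moved as follows. None of the 4 meiocyte markers passed, where 17.4% of all features did. Their median value per pool lay between -0.55 and 0.09 in tetrads and between -0.40 and -0.06 in early microspores. Of 5 features of microspore and pollen genes 1 fell (9.9% of all features did), that of Zea m 3 (feature 11114, -0.50, limma adjusted p = 0.0126). The profilin gene prf1 (feature 9205) had -0.69 (adjusted p = 0.103). Of 16 features of green anther wall genes 3 rose and 1 fell (7.54% and 9.9% of all features). Their median value per pool lay between -0.25 and -0.07 in tetrads and was -0.18, -0.32, 0.47 and 0.04 in early microspores, so that the lower floret pool of set 1 stood above the others. Without that pool the median ratio of the list was 0.13, against 0.34 with it. Of 4 kernel genes, a tissue not sampled, 1 fell, z1A1_2 (9.9% of all features fell). Counts from lists of 4 or 5 features are too small to be told apart from these shares. The values are ratios, so the absence of a marker could not be read, and the part of cell mixture in the results above was not tested.

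The course over all 6 stages places these changes. Of the 15 genes named for the largest rises with the same sign in all 4 differences, 13 had their highest stage mean in early microspores, and of the 15 named for such falls, 11 had their lowest there. Among all called features 583 of the 917 that rose (63.6%) were highest and 751 of the 1204 that fell (62.4%) lowest in early microspores. All of these were picked by the difference between early microspores and tetrads, a choice that favours an extreme in early microspores. The share over all features was not counted, so these numbers only describe the picked features. The neighbouring steps share pools with this one, so their values are set side by side only. In the order meiocyte, mixed dyad and tetrad, tetrad, early microspore, mid-microspore and mixed mid and late microspore, the stage means of vdac2 (feature 4564) were -0.47, -0.61, -0.21, 2.60, -0.23 and -1.08, and it dropped from early to mid-microspores by a log2 ratio of -2.83. Sucrose synthase ss2 (feature 11138) had -0.62, -0.53, -0.43, 1.78, 0.09 and -0.28, and GRF14 (feature 7357) -0.41, -0.35, 0.00, 1.08, -0.12 and -0.21. Early microspores were the only stage at which any of these 3 genes had a mean above 1. VAP27-2 (feature 9363), with -0.60, -0.32, 0.58, 1.57, -0.36 and -0.86, had already gained 0.90 from the mixed dyad and tetrad stage to tetrads (limma adjusted p = 0.0146). SPS (feature 8449) went on upward by 1.92 to mid-microspores (adjusted p = 2.76e-04), with -1.03, -0.98, -1.38, -0.25, 1.67 and 1.97.

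Some falls went on after this step. JAZ9 (feature 8718), with stage means of 1.22, 1.41, 1.01, -0.54, -1.58 and -1.52, and CRH (feature 1700), with 1.38, 1.39, 1.14, -0.37, -1.97 and -1.57, dropped further to mid-microspores, by log2 ratios of -1.04 and -1.60 (limma adjusted p = 0.00349 and 0.00437). H+-PPase (feature 6196) had 0.70, 0.56, 0.41, -0.66, -0.46 and -0.55, and rps28 (feature 7283) 0.58, 0.81, 0.39, -0.87, -0.43 and -0.47. In these, the 3 early stages lay above 0 and the 3 later stages below. H+-PPase features 3332 and 7018 had ratios of 0.81 and 0.81 from early to mid-microspores (adjusted p = 3.49e-04 and 0.00277), against 0.20 for feature 6196 (adjusted p = 0.22). Between the mixed dyad and tetrad stage and tetrads, none of the 15 genes named for their fall passed. The share of all features that passed in that step is not given here, so this is not a trait of these genes. They were also picked with the tetrad pools that the step shares.

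**Figure D5:**
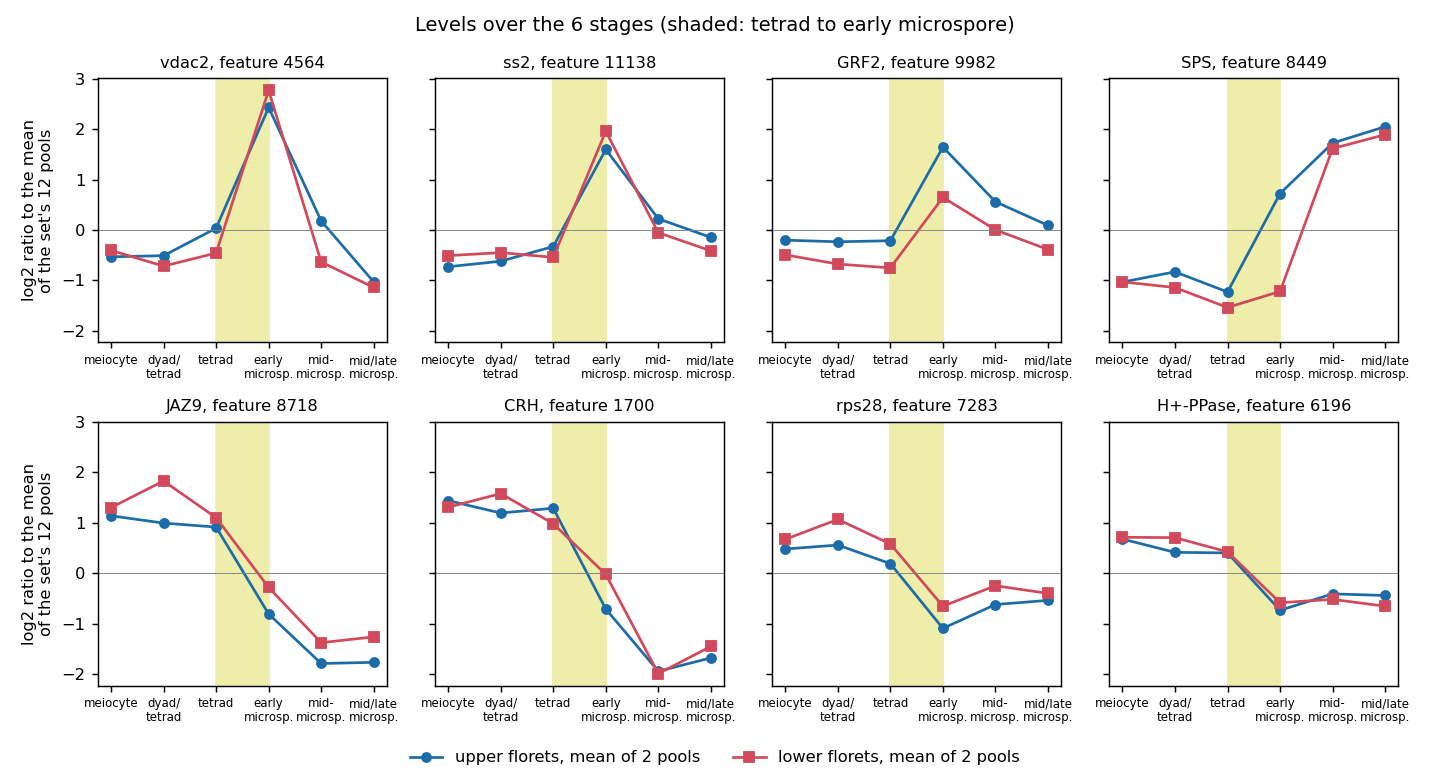
Log2 value at each of the 6 stages, against the average of the 12 pools of one set, for 4 genes that rose (top) and 4 that fell (bottom) from tetrads to early microspores (shaded), with lines for the mean of 2 upper and of 2 lower floret pools. The genes vdac2, ss2 and GRF2 peak at early microspores, and SPS is at 0.73 in upper and -1.22 in lower florets there.

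The step did not differ detectably between florets. A test of the difference of the steps in limma called 0 of 12160 features (0.0%), with a lowest adjusted p of 0.9994, 413 features at an unadjusted p under 0.05 and 0 calls in each of 19 other fits. Among called features 5 had upper and lower ratios of opposite sign. Features were called on the mean of both florets, a choice that favours the same sign in both. The share over all features is not given here, so this number only describes the called features. With 2 pools per floret and stage, 1 difference in each set, the design resolves the average over florets better than the difference between them. Across features the differences of one floret correlated between the sets at r = 0.574 in upper and 0.595 in lower florets, and at 0.546 and 0.401 between florets of different sets, values that describe these features and are not tests.

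The largest changes of all fell on features with no gene name. Feature 3414, of the gene LOC100278255, had log2 values of -0.78, -0.28, -2.17 and 0.48 in the tetrad pools and 4.90, 4.53, 6.20 and 4.74 in the early microspore pools. Its groups are separated by more than 3 log2 units, and its ratio was 5.78 ± 0.47 (limma adjusted p = 5.50e-06). Feature 5245 had 5.10 ± 0.46 and feature 4502 had 4.31 ± 0.45. Of the 10 largest rises without a gene name 9 were highest in early microspores, a stage that their choice by this step favours. Of the 10 largest falls without a gene name 4 were lowest there. Feature 340 rose by 4.10 and went on by 1.75 to mid-microspores. The largest fall, feature 6058 of the gene LOC100272992, ran from 0.14, -0.27, 0.08 and -0.44 in tetrads to -3.91, -3.34, -3.60 and -2.79 in early microspores (log2 ratio -3.29 ± 0.30, adjusted p = 1.36e-05) and returned by 3.98 to mid-microspores (adjusted p = 1.34e-06), so that it was low at 1 stage of 6. Feature 3972, of the gene LOC100273046, had the opposite course, a peak in tetrads: its stage means were -2.06, 0.35, 3.33, 1.39, -1.36 and -1.65. Its differences of -1.77, -2.09, -0.29 and -3.64 all pointed down but were uneven in lower florets.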

How the data were processed

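The authors deposited 1 natural log ratio per feature for each of 144 scans, 3 of each of 48 slides, made by scanning slides hybridised with 2 pools, per the labels. Neighbouring stages shared slides, as did upper and lower florets of a stage. The log base was read from the values, and the sources used here do not state the normalization. Column medians lay between -0.0253 and 0.0327 (natural log). From these deposited values the 3 scans of a slide were averaged and turned into log2, floret slides were taken as upper over lower, and the 24 pool values were solved by least squares within each set (MASS 7.3.60.0.1, R 4.3.3). The step is the mean over florets of early microspore minus tetrad, tested with limma 3.58.1 on all pools (12 stage and floret groups and the set, 11 residual degrees of freedom), with p-values adjusted over all 12160 features and no filter on low values. Pools are the replicates, and individuals are not named, so p-values measure the spread between pools. In simulated data of 12160 features, 50 were changed at each of the log2 sizes 0.5, 1, 2 and 4, with Gaussian noise of the fitted spread. There, 76% of changes of log2 size 1 and 6% of size 0.5 were recovered, and 7 of 148 calls were unchanged features. The adjusted threshold depends on the share of changed features, which was set far below the share called in the data. These rates therefore check the code and need not hold for the data. Array number limits the precision.

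Features were named through GEO's platform annotation, which can be old, updated by gene number against RefSeq: 6412 features had 1 gene, 214 several and 5534 none, 6358 were matched and 1144 carry a gene name. Named genes are the 15 largest called rises and the 15 largest falls among named genes with the same sign in all 4 differences, 1 feature a gene, and up to 3 called features per list and direction. That sign condition left GRF9 and aldh2 out of the 15 rises. Families, features without a name and other list members were chosen after their values were seen. The comparison, the lists and the named genes were chosen with earlier results of these data known. Alternatives were single scans, their median, another reading or omission of floret slides, scaled columns, no replicate block, robust variances, fewer pools or slides, each pool left out, and, chosen after seeing the data, the value shared by the most features of a scan left out. Figures were drawn with matplotlib 3.10.9.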

Additional observations from a re-analysis of the deposited data

Results flagged for a closer look

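Among the named features, 10 of 225 groups of 4 values held 1 value far from the other 3, by Dixon's criterion, which chance meets in about 5 percent of groups. Among tetrad pools, the lower floret pool of set 2 stood at 0.27 for ACR4, the other pools lying between -0.78 and -0.68, and at 0.28 for ANT-G2 (feature 2462), the others lying between 0.10 and 0.12. Among early microspore pools, the lower floret pool of set 1 stood at -0.083 for RNRL2 (feature 1510), against -0.24 to -0.23, and at -0.31 for grp1 (feature 8447), against -0.62 to -0.57. The upper floret early microspore pool of set 2 was at -0.58 for the isoprenoid gene fps, against -1.41 to -1.29.

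Among the differences between an early microspore and a tetrad pool, that of upper florets in set 2 was the smallest fall for H+-PPase (feature 7018), at -0.33 against -1.31 to -1.14, for SE1A, at -0.41 against -1.28 to -1.15, and for frk2, at -0.20 against -0.50 to -0.48. That of upper florets in set 1 was the largest fall for RNRL2 (feature 1510), at -0.58 against -0.38 to -0.35. That of lower florets in set 2 was the largest for grp1 (feature 5512), at -1.36 against -0.77 to -0.65.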

How the results depend on the processing

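Against 2121 calls, 3190 features passed with floret slides turned by the dyes (1470 rose) and 1404 on the 4 direct slides alone (593 rose). With each pool left out in turn, between 1179 and 1898 passed, of which between 522 and 820 rose and between 657 and 1078 fell. The lowest number came without the upper floret early microspore pool of set 1, and 1260, 1321, 1381 and 1499 passed without the upper floret tetrad pool of set 1, the lower floret early microspore pool of set 2, the lower floret tetrad pool of set 1 and the upper floret tetrad pool of set 2. A lone pool left in a group is assumed to vary like the other groups. Without the replicate block 2451 features passed, the same 2121 among them. Pool values are set against the mean of their set, so that this block removes nothing more. That centring had already used the 1 degree of freedom that the block takes. The fit without the block still counts it, so its number of calls is too liberal. Across the other alternatives between 1628 and 2379 passed. The difference between florets had 0 calls in each of 19 other fits.

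Of 75 named features, 33 passed in each of 21 alternatives and none changed sign. The calls lost numbered 26 on the direct slides, 18 in the high scan and between 12 and 22 with a pool left out. The share of features at the value most shared in a scan had a median of 9.90% in low, 1.79% in medium and 0.284% in high scans, and 129 called features held it in a direct scan. Against the scan median, this value was 0 in the low direct scans but 5.22 and 3.37 on the log2 scale in the medium scans of the upper floret direct slides.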

Other observations

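Features with far apart floret values were looked up among the called features after their values were seen, and none differed between florets after adjustment (limma adjusted p = 0.9994). Feature 8665, without a gene name, had differences of 6.75, 6.37, -0.55 and 0.93. Its upper floret mean was 6.56 and its lower floret mean 0.19 on the log2 scale (unadjusted p of the difference in limma 0.0041). Feature 8665 held the value most shared in a scan in 2 direct scans and 22 scans in all. That value was large in some of the direct scans, as given above. Which scans held it for feature 8665 is not given here, so its part in the gap was not tested. In early microspores the stage mean of feature 8665 was 3.91 in upper and -2.83 in lower florets, and in mid-microspores 6.36 and 4.63, so that both florets were high 1 stage later. Feature 9426 had steps of 3.78 in upper and 0.94 in lower florets. Feature 9425, of the gene LOC100276302, had 2.48 and 0.24. Feature 5278 had 0.10 and -2.12, the fall being in lower florets, and held the shared value in 2 direct scans.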
